A study of Mus musculus with 12 samples.

Results

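The Schlafen genes of the mouse liver were followed through dextran sodium sulfate (DSS) colitis. The members were all rows of the count table whose Ensembl identifier carries a GENCODE vM1 symbol made of Slfn and digits only, which gave 5 of 51609 rows: Slfn1, Slfn2, Slfn3, Slfn4 and Slfn5. The annotation holds 7 such symbols, and the other two, Slfn8 and Slfn9, were not analysed here. Bulk RNA-seq of rRNA-depleted RNA had been made from 12 livers of C57BL/6 mice, 3 in each of 4 groups. The first group was untreated wild-type mice on water, the second was wild-type mice given 2% DSS in their water for 6 days, and the remaining groups were untreated and DSS-treated mice labelled as knockouts of Rela and Stat3. The mice were 5 to 7 weeks old and of either sex. All of them carried loxP-flanked Rela and Stat3, the wild-type animals were Cre-negative littermates, and in the knockouts (RelaΔhepStat3Δhep) Cre was driven by the albumin promoter, so that the deletion is limited to hepatocytes and the other cells of the liver keep both genes. DSS is a sulfated polysaccharide that injures the colonic epithelium, and the comparison asks how the liver responds to that colitis with and without hepatocyte Rela and Stat3.

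Schlafen genes encode a family of proteins best known from immune cells, where many members are induced by type I interferon and by microbial products. The short members Slfn1 and Slfn2 have been tied to growth arrest and quiescence of lymphocytes, Slfn2 also to the survival of monocytes and T cells, Slfn3 and Slfn4 are of intermediate length, and Slfn4 is known from myeloid cells. Slfn5 belongs to the long members, which carry a helicase-like domain and reach the nucleus. Interferon-induced transcription runs through interferon receptors, Jak kinases and Stat and Irf factors, and a hepatocyte deletion of Stat3 and of the NF-κB subunit Rela leaves the Irf factors in place.

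All 5 genes lie on the plus strand of chromosome 11 within 263.806 kb of the mm9 genome. In map order these are Slfn5 (ENSMUSG00000054404, chr11:82764851-82776443), Slfn2 (ENSMUSG00000072620, chr11:82878614-82884180), Slfn1 (ENSMUSG00000078763, chr11:82930351-82936172), Slfn4 (ENSMUSG00000000204, chr11:82988688-83003723) and Slfn3 (ENSMUSG00000018986, chr11:83004832-83028656). All are annotated as protein-coding. The first exons of Slfn5 lie inside an antisense gene, 1700003F17Rik, and the strand setting of the counting is not given in the sources used here. That antisense gene held 36 estimated counts over all 12 livers, against 1309 to 7319 for Slfn5 in each liver. Slfn3 and Slfn4 are alike where their longest transcripts align, with 94.8% identity over 1673 bases. These transcripts are 1816 and 3963 bases long, so the larger part of Slfn4 lies outside the alignment. The other pairs among Slfn1 to Slfn4 reached 76.7% to 80.5%. Of the 75-base stretches of the longest transcripts, 2.58% in Slfn3, 1.85% in Slfn4 and 1.7% in Slfn2 also occur in another family member, and none do in Slfn1 and Slfn5. How the counting treated reads from such shared stretches is not given in the sources used here.

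The sequences before the start sites are shown because the members all stood higher after DSS and because Rela, Stat3 and the interferon factors each have a known DNA motif. RefSeq gives 1 promoter window of 300 bases for each of the 5 members on GRCm38.p6 (250 bases before the start and 50 after), and each window matched mm9 exactly once. The stretches below run 5′ to 3′ on the plus strand from 120 to 1 bases before the RefSeq start, and for Slfn5 from 200 to 121 bases before it, a stretch that ends before the exons annotated around that start. The RefSeq start of Slfn5 lies 753 bases downstream of its GENCODE start, so the Slfn5 stretch falls inside the gene as GENCODE annotates it, and the RefSeq start of Slfn1 lies 29 bases upstream of its GENCODE start. The mm9 positions of the stretches, in the order listed, are chr11:82930202-82930321, chr11:82878494-82878613, chr11:83004712-83004831, chr11:82988568-82988687 and chr11:82765404-82765483. Capitals mark the matches described after them.
Slfn1: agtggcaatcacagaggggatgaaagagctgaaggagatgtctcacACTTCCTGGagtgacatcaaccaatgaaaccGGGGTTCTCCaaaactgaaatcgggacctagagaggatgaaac
Slfn2: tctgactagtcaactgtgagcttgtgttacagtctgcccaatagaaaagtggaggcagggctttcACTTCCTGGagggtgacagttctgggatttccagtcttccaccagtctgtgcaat
Slfn3: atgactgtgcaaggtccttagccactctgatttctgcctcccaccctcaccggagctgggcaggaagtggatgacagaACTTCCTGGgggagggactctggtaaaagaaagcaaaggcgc
Slfn4: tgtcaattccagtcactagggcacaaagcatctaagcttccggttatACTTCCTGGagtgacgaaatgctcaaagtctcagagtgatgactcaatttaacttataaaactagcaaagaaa
Slfn5: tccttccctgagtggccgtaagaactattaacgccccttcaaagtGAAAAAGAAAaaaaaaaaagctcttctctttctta

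The longest string common to the windows of Slfn1 to Slfn4 was ACTTCCTGG, which begins 74, 55, 42 and 73 bases before the start in Slfn1, Slfn2, Slfn3 and Slfn4. It was picked because these windows share it. On either strand it occurs in 277 of 32851 RefSeq mouse promoter windows of the same length (0.843%), and Slfn5 does not hold it. The core of the interferon-stimulated response element, searched on both strands as GAAA repeated after any 2 bases, was found in Slfn5 only, as GAAAAAGAAA starting 155 bases before the RefSeq start, and in 3.44% of all windows. The NF-κB consensus was found in Slfn1 only, 43 bases before the start, where it is the second run of capitals (GGGGTTCTCC), and in 5.8% of all windows. The Stat site, searched on both strands as TTC and GAA with any 3 bases between, was found in none of the 5 windows and in 8.3% of all windows. These motifs do not overlap each other in the members. A match is a string of letters and was not tested as a binding site.

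The libraries held 65879529 to 82850098 estimated counts each. Levels are given as TMM-normalized CPM (counts scaled to the library total). The tissue label was checked on hepatocyte transcripts, with albumin (Alb) at group means of 79623 to 123958 CPM. Rela ran from 39.8 to 55.5 CPM in wild-type livers and from 39.5 to 62.3 CPM in livers labelled RelaΔhepStat3Δhep, and Stat3 from 45.7 to 329.5 CPM and from 43.0 to 74.8 CPM. Rela was therefore not lower. Stat3 stood at 63.2, 329.5 and 307.3 CPM in DSS-treated wild-type livers and at 43.0, 58.0 and 74.8 CPM in DSS-treated livers labelled RelaΔhepStat3Δhep. In untreated livers it stood at 45.7, 137.6 and 87.6 CPM in wild-type mice and at 45.9, 46.7 and 49.7 CPM in the other genotype. Whole-gene counts of whole liver do not read the deleted part of a gene in 1 cell type. Why Rela was not lower was not tested, and the labels were taken as given. Xist, the transcript of the inactive X chromosome, stood at 1283, 903 and 919 CPM in the 3 DSS-treated livers labelled RelaΔhepStat3Δhep and at 1143 CPM in untreated wild-type liver 3, and at 29.0 CPM or less in the other 8. The Y-linked genes Ddx3y, Uty, Kdm5d and Eif2s3y summed to 0.120 CPM or less in those 3 livers, to 30.1 CPM in untreated wild-type liver 3 and to at least 175.1 CPM elsewhere. In the mice labelled RelaΔhepStat3Δhep, DSS and this sex-linked difference cannot be told apart. The same holds for the genotype comparison after DSS and for the difference between genotypes in the DSS response.

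Every Schlafen gene stood higher in DSS-treated than in untreated livers of both genotypes, and Slfn4 had the largest fold changes. The family came to notice through the rank of Slfn4 among the wild-type responses to DSS, so the members were in effect selected on the wild-type response, whose values are given as a description without a test. In each genotype all 3 DSS-treated livers lay above all 3 untreated ones for 5 of 5 members. The same separation held for 9.49% of the 17652 genes tested in wild-type mice and for 17.8% in mice labelled RelaΔhepStat3Δhep. In the latter, edgeR's quasi-likelihood test called 4 of 5 members higher at an adjusted p under 0.05, against 4.57% of all genes tested. All 5 members passed the filter on low counts. The median log2 fold change of the members was 2.16 in wild-type mice, beside 0.02 over all genes tested, and 1.73 in mice labelled RelaΔhepStat3Δhep, beside -0.01. An exact two-sided permutation test of 3 livers against 3 cannot go below 0.1, and each member gave 0.1 for DSS against untreated in mice labelled RelaΔhepStat3Δhep. The paper states that littermates sharing cages for a week were used, but the labels do not tie livers to cages or litters. A cage or litter shared within a group could therefore not be taken into account. The edgeR p-values treat the 12 livers as independent. In whole liver, more cells of a type and more RNA per cell cannot be told apart.

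**Figure D1:**
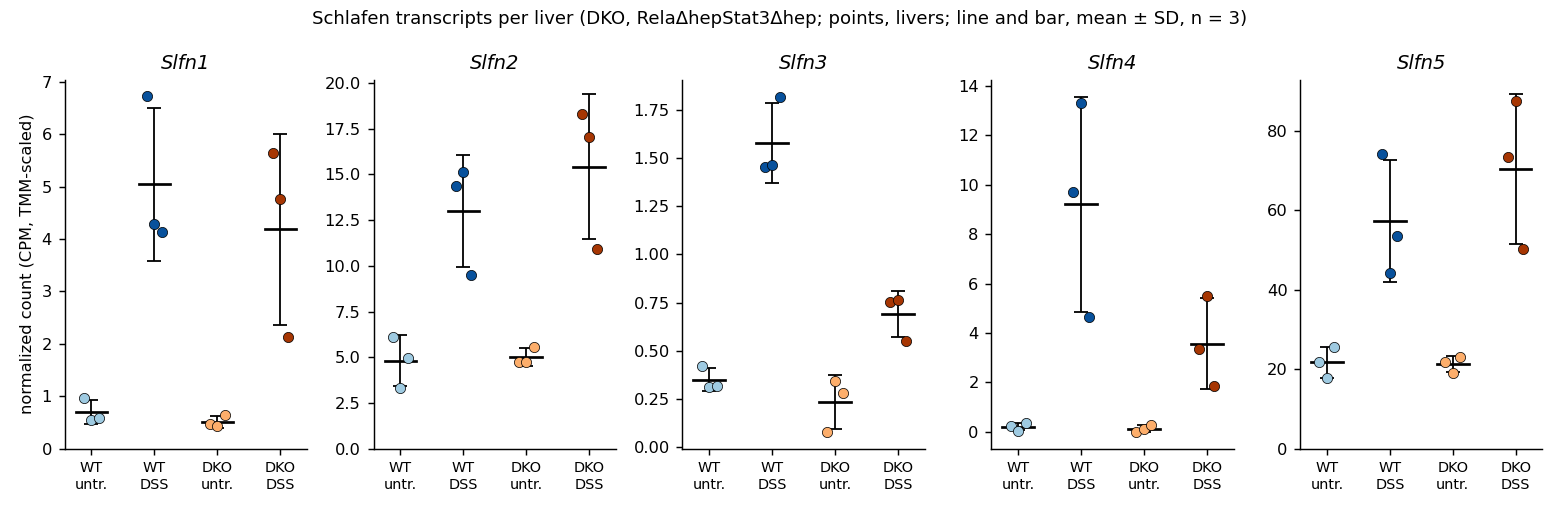
TMM-normalized counts (CPM, linear vertical axis of its own range for each gene) of the 5 Schlafen genes in the 12 livers. Points are livers, the horizontal line and bar are the mean ± SD of 3 livers, and DKO stands for RelaΔhepStat3Δhep. For each gene the DSS-treated livers sit above the untreated livers of the same genotype, and Slfn3 is the only one whose DSS-treated genotypes do not overlap.

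Slfn1, known for arresting the growth of thymocytes, was low before treatment. It measured 0.960, 0.547 and 0.588 CPM in untreated wild-type livers and 6.72, 4.28 and 4.13 CPM in DSS-treated ones, a log2 difference of 2.85 (SE 0.38). In livers labelled RelaΔhepStat3Δhep it measured 0.465, 0.428 and 0.634 CPM untreated and 5.65, 4.76 and 2.13 CPM after DSS. The lowest treated liver of that genotype still stood above every untreated liver. The increase passed the test, with a log2 fold change of 3.03 (SE 0.39) and an edgeR adjusted p of 0.00151.

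Slfn2, the member required for quiescence of T cells and monocytes, was detected in all livers. Untreated wild-type livers held 6.12, 3.33 and 4.96 CPM and DSS-treated ones 14.4, 15.2 and 9.50 CPM, a log2 difference of 1.44 (SE 0.26). Untreated livers labelled RelaΔhepStat3Δhep held 4.73, 4.76 and 5.59 CPM, a narrower range than in wild-type livers. After DSS these rose to 18.3, 17.1 and 10.9 CPM, a log2 fold change of 1.62 (SE 0.26) with an edgeR adjusted p of 0.00500.

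Slfn4, the myeloid member, was close to the detection limit before DSS. The untreated wild-type livers held 18, 4 and 23 estimated counts, or 0.237, 0.0547 and 0.347 CPM, and the DSS-treated ones 693, 836 and 314, or 9.68, 13.3 and 4.64 CPM. The ratio of the group means was 43.3 and the log2 difference 5.44 (SE 0.87). In untreated livers labelled RelaΔhepStat3Δhep the counts were 0, 10 and 20, where a count of 0 in liver 1 allows up to 0.0399 CPM (3 counts, counting error only). After DSS they were 235, 460 and 131, or 3.35, 5.51 and 1.85 CPM. The ratio of the means was 26.3, and the increase passed the test with a log2 fold change of 4.70 (SE 0.87) and an edgeR adjusted p of 0.0130. Because the starting level was only 0.213 ± 0.148 CPM (SD, n = 3) in wild-type livers and 0.136 ± 0.135 CPM (SD, n = 3) in the other genotype, the size of both folds rests on a few counts. In mice labelled RelaΔhepStat3Δhep the log2 fold change was 4.12 without untreated liver 1 and 5.68 without untreated liver 3, it was 5.83 with limma-voom, and without untreated liver 2 the edgeR adjusted p was 0.0718.

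Slfn3, which aligns closely with a part of Slfn4, had the lowest level per kb after DSS. Untreated wild-type livers held 0.421, 0.314 and 0.317 CPM and DSS-treated ones 1.45, 1.46 and 1.82 CPM, a log2 difference of 2.16 (SE 0.44). Untreated livers labelled RelaΔhepStat3Δhep held 0.0798, 0.345 and 0.283 CPM. Their DSS-treated counterparts held 0.756, 0.766 and 0.551 CPM, all above the untreated ones. The log2 fold change of 1.55 (SE 0.44) missed the threshold, with an edgeR adjusted p of 0.0540. The DESeq2 Wald test gave 0.0116 and limma-voom 0.0445, so the call of Slfn3 depends on the tool.

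Slfn5, the long member, had the highest level per kb in every group. Untreated wild-type livers held 21.7, 17.9 and 25.6 CPM and DSS-treated ones 74.2, 44.1 and 53.6 CPM, a log2 difference of 1.40 (SE 0.23). In livers labelled RelaΔhepStat3Δhep it went from 21.9, 19.0 and 23.0 CPM to 73.5, 87.6 and 50.2 CPM. This rise passed the test with a log2 fold change of 1.73 (SE 0.23) and an edgeR adjusted p of 0.00182. Each of the 4 calls was lost when high Xist was a covariate, where the adjusted p was 0.195 for Slfn1, 0.314 for Slfn2, 0.467 for Slfn4 and 0.295 for Slfn5. In that fit the SEs were 1.80 to 1.92 times as large and the estimates stayed positive, at 3.39, 1.55, 3.47 and 1.36. The one high-Xist liver outside the DSS-treated RelaΔhepStat3Δhep group is untreated wild-type liver 3.

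Per kilobase of exon, the order of levels in untreated wild-type livers was Slfn5, Slfn2, Slfn1, Slfn3 and Slfn4. Their mean levels were 4.91 ± 0.871, 2.89 ± 0.840, 0.375 ± 0.122, 0.193 ± 0.0335 and 0.0531 ± 0.0368 CPM per kb (SD, n = 3). The SD ranges of these neighbours do not touch. After DSS in wild-type livers Slfn4 had moved from the last place to the fourth, at 2.30 ± 1.09 CPM per kb, behind Slfn1 at 2.71 ± 0.781, and these neighbours overlapped within their spread. Slfn3 was then last at 0.870 ± 0.115 CPM per kb. In DSS-treated livers labelled RelaΔhepStat3Δhep the order was the same, with Slfn1 at 2.24 ± 0.981, Slfn4 at 0.891 ± 0.458 and Slfn3 at 0.381 ± 0.0669 CPM per kb. There Slfn4 and Slfn3 stood nearer to each other, and their SD ranges overlapped.

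The summed level of the 5 members was 8.42 ± 1.64 CPM per kb in untreated wild-type livers and 26.6 ± 5.12 after DSS. In livers labelled RelaΔhepStat3Δhep it was 8.27 ± 0.782 and 28.7 ± 7.80 CPM per kb (SD, n = 3 each), so the genotypes lay within each other's spread at both times. Slfn5 made up 58.7% of the sum in wild-type livers before DSS and 48.6% after it, and Slfn2 33.9% and 29.4%. Slfn4 went from 0.588% to 8.58% and Slfn1 from 4.45% to 10.1%. In livers labelled RelaΔhepStat3Δhep the share of Slfn4 went from 0.397% to 2.98%. Its share was 5.22% to 13.02% in the 3 DSS-treated wild-type livers, whose Slfn4 level brought the family to notice, and 2.33% to 3.99% in the 3 of the other genotype, values given as a description. The share of Slfn3 was 2.48% to 4.51% and 1.23% to 1.53% in the same livers. Slfn1 took 7.57% of the sum in the DSS-treated livers labelled RelaΔhepStat3Δhep.

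**Figure D2:**
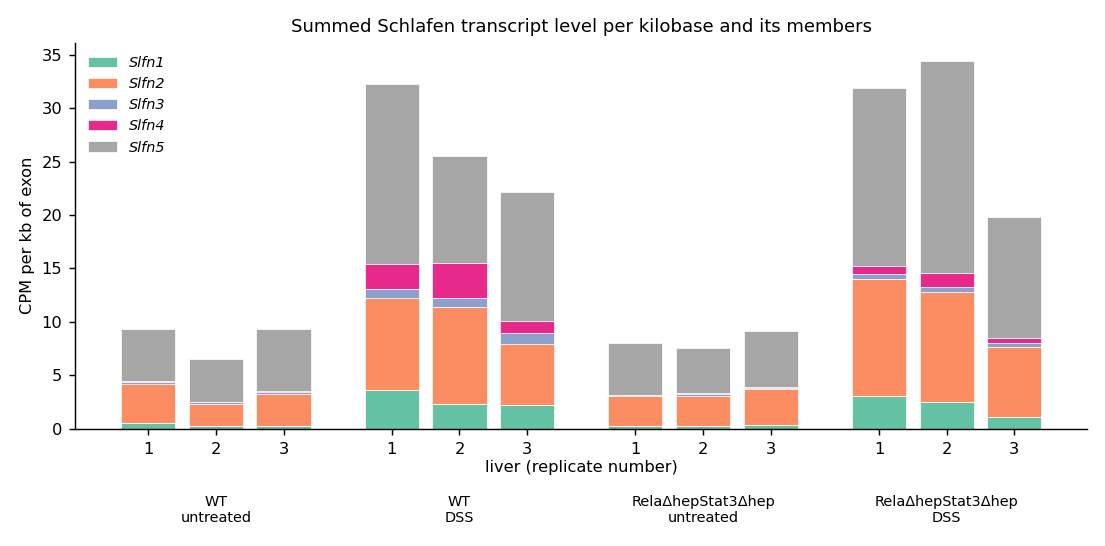
Stacked bars of the 5 Schlafen genes in each of the 12 livers, in CPM per kb of exon, with the replicate number under each bar. The full bars stand at 6.53 to 9.39 in untreated wild-type livers and at 19.8 to 34.4 in DSS-treated livers labelled RelaΔhepStat3Δhep, and the Slfn4 layer is thicker in DSS-treated wild-type livers 1 and 2 than in any other liver.

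Between genotypes no untreated member differed by the test. edgeR called 0 of 5 members at an adjusted p under 0.05 (0.0623% of all genes tested). An unadjusted p under 0.05 was found for 0 of 5, beside 2060 of the 17652 genes tested. DESeq2 and limma-voom also called 0. The log2 differences, RelaΔhepStat3Δhep minus wild-type, were -0.46 for Slfn1, 0.06 for Slfn2, -0.57 for Slfn3, -0.63 for Slfn4 and -0.03 for Slfn5. The 95% interval was narrow for Slfn5, from -0.51 to 0.45, and wide for Slfn4, from -2.69 to 1.43. The Slfn4 difference was -0.05 without untreated RelaΔhepStat3Δhep liver 1, -1.61 without liver 3 of that group, -0.11 without untreated wild-type liver 3 and -1.72 with limma-voom, none of them called. With 3 livers a group, differences inside these intervals remain compatible with the data.

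After DSS the neighbours Slfn3 and Slfn4 had the largest genotype differences of the family, and no member was called. The wild-type livers of this comparison are the ones through which the family came to notice. edgeR called 0 of 5 members (0.334% of all genes tested), as did DESeq2 and limma-voom. Before adjustment, 1 of 5, Slfn3, had an edgeR p under 0.05, beside 2516 of the 17652 genes tested. Slfn3 measured 1.58 ± 0.208 CPM in wild-type livers and 0.691 ± 0.121 CPM in livers labelled RelaΔhepStat3Δhep (SD, n = 3), and the groups did not overlap. It was the 1 member of 5 that lay lower in all 3 livers labelled RelaΔhepStat3Δhep, a separation shown by 7.98% of all genes tested. Its log2 difference was -1.19 (SE 0.42, 95% interval -2.10 to -0.28) with an edgeR adjusted p of 0.236, and over the alternatives the adjusted p ran from 0.0863 to 0.883.

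Slfn4 pointed the same way. It measured 9.21 ± 4.35 CPM in DSS-treated wild-type livers and 3.57 ± 1.84 CPM in those labelled RelaΔhepStat3Δhep (SD, n = 3). Wild-type liver 3, at 4.64 CPM, lay below the highest liver of the other genotype, at 5.51 CPM, so the groups overlapped. The log2 difference was -1.37 (SE 0.70, 95% interval -2.90 to 0.17) with an edgeR adjusted p of 0.411, and -2.60 (SE 1.46, edgeR adjusted p 0.820) with high Xist as a covariate. The remaining members lay closer to 0, at -0.27 (95% interval -1.03 to 0.49) for Slfn1, 0.25 (-0.30 to 0.79) for Slfn2 and 0.30 (-0.19 to 0.78) for Slfn5, with edgeR adjusted p-values of 0.783, 0.710 and 0.593.

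The interaction asks whether the response itself differs, as the log2 change with DSS in mice labelled RelaΔhepStat3Δhep less the change in wild-type mice. edgeR called 0 of 5 members (0.408% of all genes tested), and DESeq2 and limma-voom called 0. An unadjusted edgeR p under 0.05 was found for 0 of 5, beside 2874 of the 17652 genes tested. The estimates were 0.19 for Slfn1 (95% interval -0.93 to 1.30), 0.18 for Slfn2 (-0.59 to 0.95), -0.62 for Slfn3 (-1.95 to 0.71), -0.73 for Slfn4 (-3.34 to 1.87) and 0.33 for Slfn5 (-0.36 to 1.01). The estimate of Slfn4 was -2.49 (SE 2.18) with high Xist as a covariate, 0.36 with limma-voom and 0.24 without untreated RelaΔhepStat3Δhep liver 3. The interval of Slfn4 allows a response more than 1 higher or lower on the log2 scale, so that equal responses are not shown by these data. The interaction also uses the wild-type livers of the contrast that brought the family to notice.

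Genes next to the cluster were read in the same fit. The 3 nearest tested genes on the left were Unc45b, Nle1 and Rad51l3, with log2 differences of 0.07, -0.10 and -0.07 in wild-type mice and 0.89, -0.45 and -0.12 in mice labelled RelaΔhepStat3Δhep. On the right, Ap2b1, an adaptor of clathrin coats, had 0.19 and -0.07. None of these 4 passed edgeR's test after DSS, with adjusted p-values from 0.573 to 0.951 in wild-type mice and from 0.0955 to 0.814 in mice labelled RelaΔhepStat3Δhep. Farther to the right, Rasl10b was low, with 10, 13 and 6 counts in wild-type livers before DSS and 10, 129 and 11 counts after it. It fell from 14, 25 and 33 counts to 0 in all 3 DSS-treated livers labelled RelaΔhepStat3Δhep (edgeR adjusted p 0.0259). Within the cluster, Gm11425 stood at -0.36 and -0.12 (edgeR adjusted p 0.732 and 0.884), while the family homologue Slfn10-ps, outside the naming rule, stood at 2.18 (SE 0.46) and 1.48 (SE 0.44), with edgeR adjusted p-values of 0.0515 and 0.0615. Another homologue outside the rule, Slfn14-ps, held 14 or fewer estimated counts in every liver. Its wild-type estimate was -0.55 (SE 1.76, edgeR adjusted p 0.930). In untreated livers labelled RelaΔhepStat3Δhep it was at 0, and the increase there was not called (edgeR adjusted p 0.216).

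**Figure D3:**
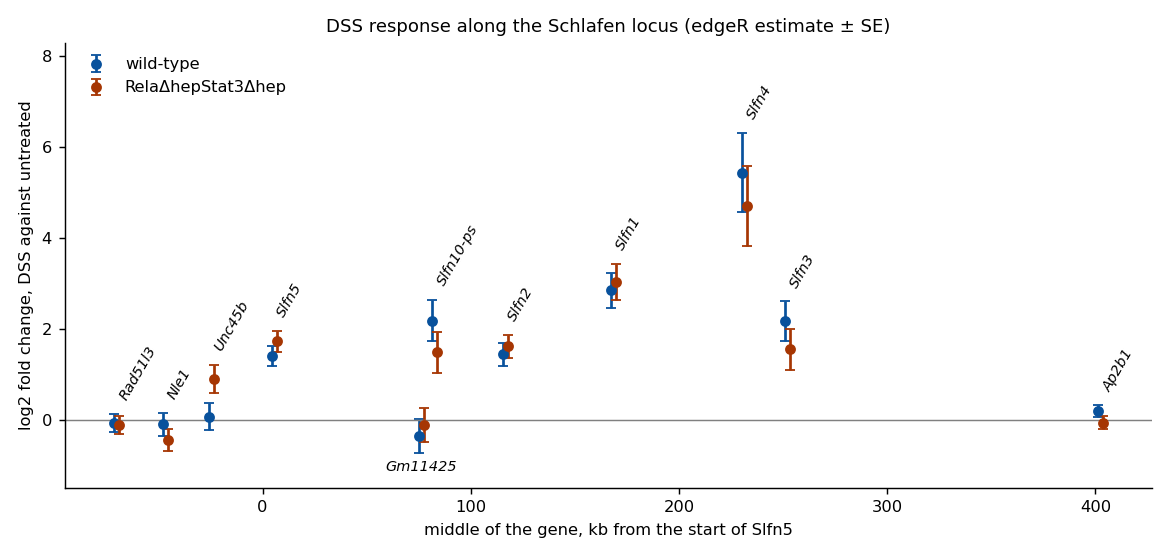
DSS against untreated as log2 fold change (edgeR estimate ± SE, 3 livers a group) for tested genes along the Schlafen locus, placed by the middle of each gene in kb from the start of Slfn5, in wild-type mice and in mice labelled RelaΔhepStat3Δhep. Slfn4 is highest at 5.44 and 4.70, and the flanking genes shown lie between -0.45 and 0.89. Rasl10b, at 0 counts in 1 group, and the pseudogene Slfn14-ps are left out.

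Genes of the interferon pathway were read beside the family. Of 22 genes of type I interferon production and signalling, 15 were tested, and in mice labelled RelaΔhepStat3Δhep 9 of these 15 were called higher by edgeR, with a median log2 fold change of 1.35. There 4.57% of all genes tested were called higher. In wild-type mice 4 of 15 were called higher, with a median of 0.59, where 0.453% of all genes tested were called higher. The most abundant were Jak1, a kinase of the interferon receptor, Irf7, the amplifier of interferon transcription, Mavs, the adaptor of RNA sensing, and Ifih1, an RNA sensor. Irf7 rose from 56.7 ± 11.1 to 271.4 ± 39.9 CPM in wild-type livers (SD, n = 3), a log2 fold change of 2.26 with an edgeR adjusted p of 0.00756. In mice labelled RelaΔhepStat3Δhep it rose by 2.53 on the log2 scale (edgeR adjusted p 0.000957), and Ifih1 rose by 1.89 (edgeR adjusted p 0.00187). Jak1 had 0.12 and 0.21, and Mavs had -0.54 and -0.52, none of which passed. Ifna4 was at 0 in every library.

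Of 20 interferon-stimulated reference genes, 17 were tested, 17 of 17 were called higher after DSS in mice labelled RelaΔhepStat3Δhep (4.57% of all genes tested) and 5 of 17 in wild-type mice (0.453%). The interaction called 0 of 17 of them, and 0 of 15 of the interferon pathway genes. The median log2 fold change of the 17 reference genes was 3.27 in mice labelled RelaΔhepStat3Δhep and 2.22 in wild-type mice. The Schlafen members had medians of 1.73 and 2.16. They lay below the list in mice labelled RelaΔhepStat3Δhep and near it in wild-type mice, whose response is the one that brought the family to notice. These differences were not tested. The most abundant reference genes were Bst2 (tetherin, which holds budding virus at the cell surface), Ifit1 and Ifit3 (cytosolic antiviral proteins) and Ifi44. Bst2 had log2 fold changes of 0.13 (edgeR adjusted p 0.842) in wild-type mice and 1.13 (edgeR adjusted p 0.0130) in mice labelled RelaΔhepStat3Δhep. Ifit1 had 2.72 (edgeR adjusted p 0.0533) and 4.97 (edgeR adjusted p 0.00196). The summed level of the list in DSS-treated wild-type livers was 1528, 553 and 1392 CPM, lowest in liver 2, and 1954, 2939 and 1565 CPM in those labelled RelaΔhepStat3Δhep. Slfn5 followed the same order within each of these groups, highest in wild-type liver 1 and lowest in wild-type liver 2, whereas Slfn4 was highest in wild-type liver 2. In the DSS-treated livers labelled RelaΔhepStat3Δhep Slfn4 did follow the order of the sum, at 3.35, 5.51 and 1.85 CPM.

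Markers of immune cells are given here for each group. Beside the counts of calls, edgeR called 4.57% of all genes tested higher after DSS in mice labelled RelaΔhepStat3Δhep and 0.453% in wild-type mice. The summed level of the 15 neutrophil markers with a row was 4.92 to 7.56 CPM in untreated wild-type livers and 10.8, 132 and 5.53 CPM in DSS-treated wild-type livers 1, 2 and 3. It was 2.08 to 2.63 CPM in untreated and 13.01 to 32.9 CPM in DSS-treated livers labelled RelaΔhepStat3Δhep, where edgeR called 1 of 12 tested markers higher. In that genotype 12 of 12 had a higher estimate, with a median log2 fold change of 3.66. The same held for 12 of 12 in wild-type mice, with a median of 3.37 and 0 called. Retnlg and Mpo were at 0 in all untreated livers labelled RelaΔhepStat3Δhep. DSS-treated wild-type liver 2 thus combined the highest neutrophil sum with the highest Slfn4 level, 13.3 CPM. In DSS-treated livers labelled RelaΔhepStat3Δhep the order was different, since liver 2 had the lowest neutrophil sum (13.01 CPM) and the highest Slfn4 level (5.51 CPM), and liver 1 the highest sum (32.9 CPM) with Slfn4 at 3.35 CPM. Without wild-type liver 2 the wild-type log2 difference of Slfn4 was 5.07. The 11 monocyte markers summed to 78.4 to 120.0 CPM and 129.3 to 241.6 CPM in untreated and DSS-treated wild-type livers, and to 92.1 to 123.1 CPM and 235.5 to 455.5 CPM in those labelled RelaΔhepStat3Δhep. In the latter edgeR called 8 of 11 higher after DSS, Lyz2 (lysozyme) by 1.51 and Plac8 by 2.22 on the log2 scale among them, and in wild-type mice it called 3 of 11 higher, Plac8 by 1.89, Fcgr1 by 1.72 and Ms4a4c by 2.35. The 11 Kupffer cell markers summed to 534 to 913 CPM and 723 to 1494 CPM in wild-type livers, and to 685 to 754 CPM and 1055 to 1569 CPM in those labelled RelaΔhepStat3Δhep, where 8 of 11 were called higher, Clec4f by 1.07 and C1qb by 1.08 among them. In wild-type mice 0 of 11 were called and 10 of 11 had a higher estimate, with a median of 0.62. The interaction called 0 of 11 in both the monocyte and the Kupffer cell list. The part of these cells in the Schlafen levels was not tested.

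The lymphocyte lists had medians of opposite sign in the 2 genotypes, other than a value near 0 for NK cells in wild-type mice, and the difference between the medians was not tested. In the interaction edgeR called 0 of the 12 T cell, 8 B cell and 8 NK cell markers, with the lowest adjusted p at 0.0786 for Pax5. In untreated livers the B cell markers summed to 8.01 to 9.16 CPM in wild-type livers and 3.12 to 3.68 CPM in those labelled RelaΔhepStat3Δhep, where 8 of 8 had a lower estimate and 0 were called. In mice labelled RelaΔhepStat3Δhep the median log2 fold changes after DSS were 0.69 for 12 T cell, 1.25 for 8 B cell, 1.56 for 8 NK cell, 0.30 for 9 endothelial and -0.16 for 11 hepatocyte markers, and edgeR called 0, 1, 3, 0 and 0 of them higher. In wild-type mice the medians were -0.95, -1.02, -0.08, -0.25 and 0.13, and 0 of each list were called higher. Over all genes tested, 4.57% were called higher in mice labelled RelaΔhepStat3Δhep and 0.453% in wild-type mice. Erythroid and platelet markers, 9 and 5 tested, had medians of -0.14 and -0.26 in wild-type mice and of -0.49 and 0.02 in the other genotype, with 0 called higher. In mice labelled RelaΔhepStat3Δhep 1 erythroid marker, Alas2 of heme synthesis, was called lower (log2 fold change -2.68, edgeR adjusted p 0.0269), and so was 1 hepatocyte marker, the transcription factor Hnf4a (-0.70, edgeR adjusted p 0.0325), and no marker of these lists was called lower in wild-type mice.

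**Figure D4:**
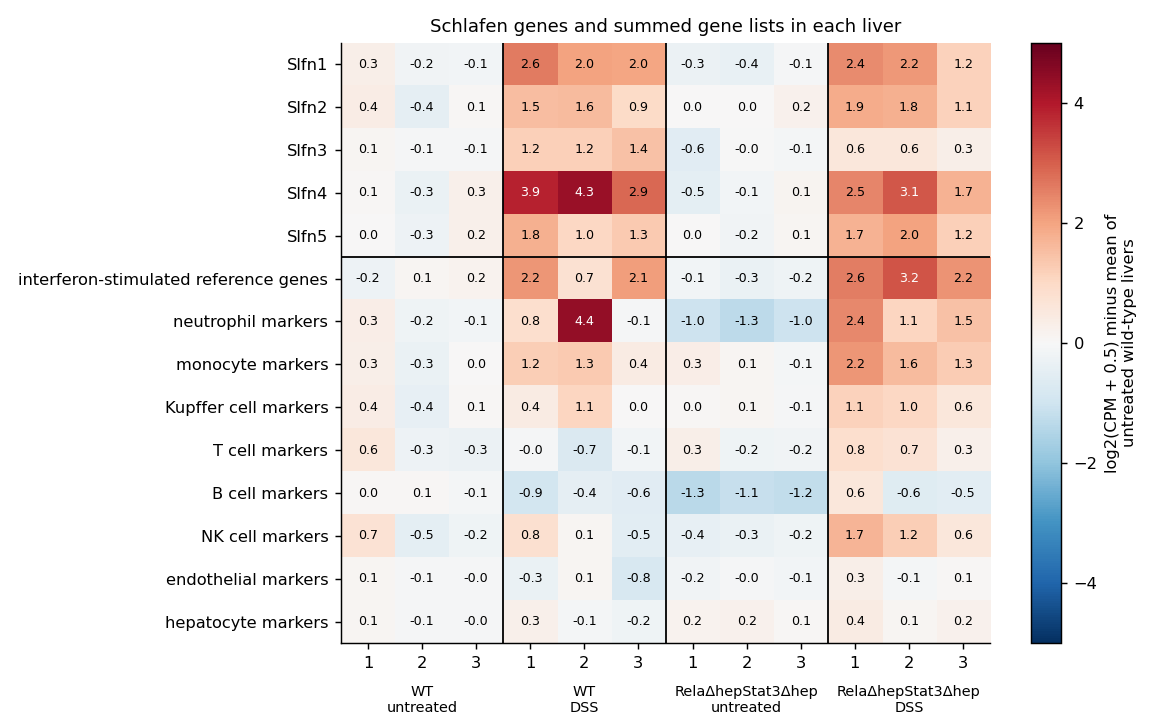
Each cell is the log2(CPM + 0.5) of a Schlafen gene, or of the summed CPM of a gene list, minus the mean of the 3 untreated wild-type livers, for the 12 livers with their replicate numbers (red higher, blue lower). The Slfn4 row reaches 4.3 in DSS-treated wild-type liver 2, where the neutrophil row is at 4.4 and the interferon-stimulated row at 0.7.

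The genes most like 3 of the members were ranked by Pearson's r of log2(CPM + 0.5) over the 12 livers, among 14413 named genes. The livers fall apart by treatment, so a high r over all 12 largely carries that gap and is given as a description. Slfn5 was nearest to Ifit2 (0.985), Ccl2 (0.975), Ms4a4c (0.970), Ifi44 (0.968) and BC094916 (0.967), among which Ifit2 and Ifi44 are interferon-induced and Ccl2 attracts monocytes. Ms4a4c and Plac8 are also on the monocyte list, and Ifit2, Ifi44, Oas2 and Irf7 are on the interferon lists. Those near Slfn2 were Ly86 (0.982), Ms4a6d (0.980), Lcp2 (0.978) and Plac8 (0.977), of which Lcp2 is an adaptor of immune receptor signalling. Slfn4 was nearest to Oas2 (0.952), Pyhin1 (0.942), Irf7 (0.941), Il6 (0.939) and Aldh18a1 (0.937), with Oas2 an interferon-induced oligoadenylate synthetase and Aldh18a1 an enzyme of proline synthesis. Within the 6 DSS-treated livers the r of these genes was 0.788 to 0.935 for Slfn5, 0.874 to 0.959 for Slfn2 and 0.454 to 0.769 for Slfn4. Within the 6 untreated livers it was 0.435 to 0.870, 0.661 to 0.949 and -0.43 to 0.647. For Slfn4, whose counts were 23 or fewer in untreated livers, Oas2 (0.620) and Irf7 (0.647) stayed positive there, Pyhin1 was at 0.282, and Il6 (-0.43) and Aldh18a1 (-0.26) were negative. Il6 itself was at 0.027 ± 0.047 CPM (SD, n = 3) in untreated wild-type livers. It was at 0 in those labelled RelaΔhepStat3Δhep, so the sign of its r there cannot be read. Among the members themselves, r within the 6 DSS-treated livers ran from -0.32 for Slfn2 with Slfn3 to 0.700 for Slfn3 with Slfn4. It was -0.28 for Slfn3 with Slfn5 and -0.05 for Slfn4 with Slfn5. These livers pool the genotypes, and Slfn3 and Slfn4 both had lower means in those labelled RelaΔhepStat3Δhep. Within the wild-type group, liver 3 had the highest Slfn3 and the lowest Slfn4 level. In the other genotype both genes were highest in liver 2 and lowest in liver 3.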

How the data were processed

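Livers of 12 mice were analysed in 4 groups of 3, grouped by the labels. The authors trimmed reads with fastp, aligned them to mm9 with HISAT2 and deposited estimated counts per gene from StringTie as whole numbers without normalization. Such counts are derived from coverage, and their totals exceed the fragment number given in the methods, so 1 count is not 1 read and counting limits are too narrow. The annotation release and strand setting are not given in the sources used here. GENCODE vM1 symbols matched 28677 of 51609 rows, and 1672 identifiers belong to a later series than that annotation. Counts were fitted in R 4.3.3 with edgeR 4.0.16 (filterByExpr, 17652 genes tested, TMM factors 0.758 to 1.13, robust quasi-likelihood test, 1 model of the 4 groups), with Benjamini-Hochberg adjustment over all genes tested, a threshold of 0.05, and tested on simulated data. Alternatives used limma 3.58.1 (voom with sample quality weights), DESeq2 1.42.0 (Wald test and size factors), other filters, only the groups compared, a block by replicate number, high Xist (over 100 CPM) as a covariate and leaving out each liver. Promoter windows came from RefSeq. Named genes were all members, the 3 nearest tested genes on each side, the 5 genes most like Slfn5, Slfn2 and Slfn4, up to 4 most abundant genes of a list (other genes named from a list were chosen after their values were seen) and the label checks; some of these are not reported here. The members and gene lists were chosen with earlier results of these data known.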

Additional observations from a re-analysis of the deposited data

How the results depend on the processing

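In wild-type mice the 5 members kept all DSS-treated livers above all untreated livers with DESeq2 size factors, and their estimates stayed positive in every alternative. In mice labelled RelaΔhepStat3Δhep the number of members called higher was 5 with the DESeq2 Wald test and with limma-voom. It was 4 with DESeq2 size factors in edgeR, without a filter and with only the groups compared. With at least 10 counts in every library it was 3, and Slfn3 and Slfn4 are then no longer tested. The share of all genes called is given here for edgeR's main fit only, so the counts of the alternatives have no such background beside them. Leaving out 1 liver gave 3 to 4 calls, with 3 without untreated RelaΔhepStat3Δhep liver 2. With high Xist as a covariate 0 members were called, and the cause was not tested. That covariate varies only within the untreated wild-type group, where liver 3 is the high one, so its effect is set by 1 liver. The genotype differences and the interaction called 0 members in every alternative, and each leave-one-out gave 0 to 0. The summed level per kb moved by less than 1 SD with DESeq2 size factors and with the longest transcript as length.

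Small genotype estimates changed sign, none of them called before or after. With high Xist as a covariate the untreated difference of Slfn5 was 0.10, the differences after DSS were 0.087 for Slfn1 and -0.073 for Slfn5, and the interaction of Slfn5 was -0.18. With limma-voom the interaction of Slfn4 was 0.36. Without 1 liver the untreated difference ran from -0.14 to 0.28 for Slfn2 and from -0.15 to 0.10 for Slfn5, the difference after DSS from -0.54 to 0.048 for Slfn1, and the interaction from -0.11 to 0.51 for Slfn1, from -0.028 to 0.39 for Slfn2 and from -1.31 to 0.24 for Slfn4. The cause of these was not tested.

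With the replicate number as a block (replicate block), 4 members were called in mice labelled RelaΔhepStat3Δhep, as without it, and 0 in the genotype differences and the interaction. Whether the numbers pair the livers by origin is not given in the labels. Over 18 same-numbered pairs the correlation of deviations from the group means ran from -0.07 to 0.21, with 5 over 0.1. Of 12 livers, 5 were closest to their own number. Differently numbered pairs are not given beside these values, which therefore cannot exclude a pairing. The depth limits Slfn3 and Slfn4 before DSS, with 32 or fewer estimated counts in each untreated liver.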
